A study of Homo sapiens with 18 samples.

Results

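The genes described here are 10 components of TGF-beta signalling in 2 pancreatic ductal adenocarcinoma (PDAC) cell lines: the ligand genes TGFB1, TGFB2 and TGFB3, the receptor genes TGFBR1, TGFBR2 and TGFBR3, the signal transducers SMAD2 and SMAD3, and the feedback inhibitors SMAD7 and SKIL. They were chosen by name among the 40266 gene symbols of the expression table, and all 10 were found. All 10 also passed the filter on low values, which 16093 genes did (an abundance per transcript length, TPM, of 1 or more in at least 3 libraries). Expression was measured by RNA sequencing in 18 libraries that form 6 groups of 3, namely the parental cells, a Holoclone and a Paraclone of each of the lines Panc1 and Panc89. Panc1 came from a primary tumour and serves the study as a mesenchymal-like line, whereas Panc89 came from a lymph node metastasis and serves as an epithelial line. Holoclone cells are the study's cancer stem cell model and Paraclone cells its non-stem counterpart. Each Holo- and Paraclone group was grown from 1 single-cell clone, so that a difference between Holo- and Paraclone cells is a difference between individual clones. No group received a treatment, and all cells grew in RPMI medium with fetal calf serum. The replicates are passages of the same cells, and the p-values therefore measure the spread between passages.

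TGF-beta ligands are secreted in a latent form that is stored in the extracellular matrix and has to be activated, for instance by integrins. Active ligand binds TGFBR2, which recruits and phosphorylates TGFBR1, while TGFBR3 (betaglycan) presents the ligand, TGFB2 in particular, to TGFBR2. The activated TGFBR1 phosphorylates SMAD2 and SMAD3, which enter the nucleus with SMAD4 and regulate target genes. SMAD7 blocks the receptor and SKIL (SnoN) represses SMAD target genes in the nucleus. In pancreatic cancer the pathway is known both for growth restraint of epithelial cells and for epithelial-mesenchymal transition.

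Each library's TPM summed to between 985339 and 988066, and 12932 to 14199 genes reached 1 TPM. Since TPM retain no read totals, the sequencing depth is unknown. The mesenchymal markers VIM, ZEB1, CDH2 and SPARC together reached 2052 to 5181 TPM in the Panc1 libraries and 2.65 to 12.2 TPM in the Panc89 libraries. VIM made up most of the Panc1 sums, at 2021 to 5044 TPM. CDH2 did not separate the lines, with means of 4.67, 13.8 and 1.38 TPM in Panc1 parental, Holoclone and Paraclone cells. Its means were 3.10, 8.32 and 4.06 TPM in the corresponding Panc89 groups. SPARC had a mean of 2.36 TPM in Panc1 Holoclone cells, against 888 and 68.6 TPM in parental and Paraclone cells. The epithelial markers CDH1, EPCAM, KRT8, KRT18 and KRT19 together reached 2593 to 5016 TPM in Panc1 and 2786 to 4090 TPM in Panc89, although CDH1 alone stayed at or under 3.51 TPM in Panc1 and was at least 73.3 TPM in Panc89. Of the 3 endothelial markers, PECAM1 was at 53.2 to 64.7 TPM and CDH5 at 1.99 to 5.07 TPM in parental Panc89, and VWF was at or under 0.136 TPM there. Over all 3 genes the sum was 55.2 to 69.1 TPM in parental Panc89, 1.01 to 2.16 TPM in its Holoclone cells, 2.95 to 8.90 TPM in its Paraclone cells and at most 0.273 TPM in any Panc1 library. The part of these markers in the values of parental Panc89 was not tested. Of the leukocyte markers, CD68 was at 52.2 to 151 TPM in the Panc1 libraries and at 8.31 to 63.0 TPM in the Panc89 libraries. Its mean was 60.2 TPM in Panc1 Holoclone and 134 TPM in Panc1 Paraclone cells. In Panc89 these means were 21.7 and 52.5 TPM. PTPRC and CD3E were under 1 TPM in every library. The 4 fibroblast markers summed to at most 1.46 TPM. In bulk RNA, fewer cells of a type and less RNA per cell cannot be told apart.

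The 3 ligand genes differ in the sequence just before their transcription start. Shown are the 150 bases upstream of the RefSeq start of TGFB1 and TGFB2 (GRCh38.p14, 5′ to 3′ on the gene's strand). These 2 genes were taken since they made up most of the ligand RNA and their mean shares varied between groups. No test of the TGFB1 share could pass the threshold, as described below. Of TGFB3 and SKIL, 30 and 25 bases are shown. The TGFB1 window lies at chr19:41353923-41354072 (minus strand) and the TGFB2 window at chr1:218345186-218345335 (plus strand). Both windows end directly before the first base of the gene in GENCODE 44, and the TGFB2 window overlaps an exon of the antisense gene TGFB2-AS1. The TGFB3 stretch lies at chr14:75982016-75982045 (minus strand) before the downstream of its 2 RefSeq starts, inside the gene but in no exon. The SKIL stretch lies at chr3:170357653-170357677 (plus strand) before its RefSeq start, in an exon of an upstream GENCODE transcript. Capitals mark the motifs that were searched on both strands: TATAAA (the TATA box), TGACGT (part of a CRE site), GGGCGG (a GC box) and CAGAC (letters of the SMAD-binding element).
TGFB1: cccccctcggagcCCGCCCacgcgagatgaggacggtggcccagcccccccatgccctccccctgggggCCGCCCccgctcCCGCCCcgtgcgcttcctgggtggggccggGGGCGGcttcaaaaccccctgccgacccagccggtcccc
TGFB2: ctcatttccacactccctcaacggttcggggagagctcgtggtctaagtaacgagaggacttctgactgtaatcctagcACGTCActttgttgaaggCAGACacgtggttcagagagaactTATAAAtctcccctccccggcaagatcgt
TGFB3: gagACGTCAtgggagggaggTATAAAattt
SKIL: ggactcggTGACGTCAgagggctgt
TGFB1 held 4 GC boxes and neither TATAAA nor TGACGT. TGFB2 held TATAAA 29 bases before the start, and TGFB3 held it 30 bases before the downstream of its 2 starts. TGFB2 and TGFB3 each held 1 TGACGT match, at 71 and 47 bases before these starts, and TGFB2 held CAGAC at 53 bases. The 150 bases before the upstream TGFB3 start held neither TATAAA nor TGACGT, and CAGAC at 133 bases. In the 150 bases before the SKIL start TGACGT matched 3 times, at 79, 54 and 52 bases, of which the last 2 are the same letters read on either strand and overlap. This SKIL window also held 3 GC boxes, at 148, 130 and 73 bases, and CAGAC at 107 bases. Of 35116 RefSeq windows of 150 bases, 6.71% held TATAAA, 5.39% TGACGT, 36.8% GGGCGG and 23.6% CAGAC. A match describes the letters and is not evidence that a factor binds there.

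SMAD3 was the most abundant of the 10 transcripts on average (120 TPM over the 18 libraries) and TGFBR3 the least (1.495 TPM). SMAD3 also had the widest span of group means on the log2(TPM + 1) scale, with 3.07 between Panc1 Paraclone and Panc89 Holoclone cells, followed by SKIL with 2.56 and SMAD7 with 2.49. TGFB1 varied least, with a span of 0.999 and all libraries between 22.7 and 51.8 TPM. TGFB3 was under 1 TPM in all 6 libraries of the Panc89 Holo- and Paraclone cells, and TGFBR3 never exceeded 3.42 TPM. On the log2(TPM + 1) scale, differences of such low genes are understated.

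**Figure D1:**
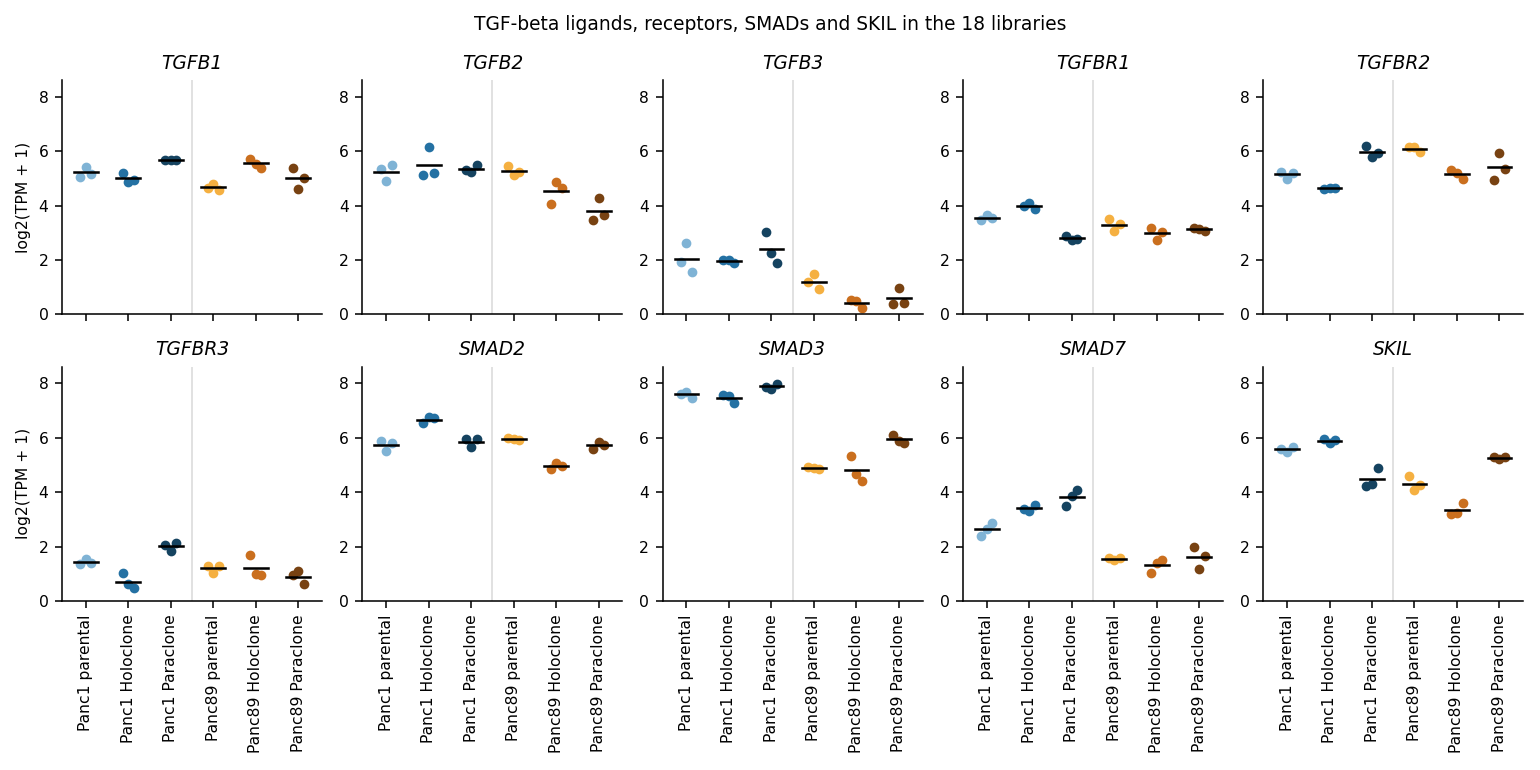
Expression of the 10 genes as log2(TPM + 1) (y axis) in the 6 groups (x axis). Points are libraries, 3 per group, and black bars are group means. SMAD3, SMAD7 and TGFB3 were higher in every Panc1 library than in any Panc89 library, while SKIL was highest in Panc1 Holoclone cells (mean 58.2 TPM) and lowest in Panc89 Holoclone cells (mean 9.13 TPM).

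The first comparison asked how the 2 lines differ before any clone was selected. Parental Panc89 cells had much less SMAD3 than parental Panc1 cells, and also less SMAD7, SKIL, TGFB3 and TGFB1, whereas TGFBR2 was higher. Of the 10 genes, 6 passed the test, 1 higher and 5 lower in Panc89, against 66.0% of all genes tested. The median log2 fold change of the 10 genes was -0.39, and that of all genes was -0.18.

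SMAD3 was at 192, 206 and 176 TPM in parental Panc1 and at 29.6, 28.6 and 27.8 TPM in parental Panc89. The groups were far apart, with a log2 fold change of -2.69 ± 0.17 (SE, limma-trend adjusted p = 1.39e-09). SMAD2, its partner, was at 57.6, 44.3 and 55.1 TPM in parental Panc1 and at 61.8, 60.0 and 58.8 TPM in parental Panc89, a difference of 0.21 (95% interval -0.04 to 0.46). SKIL was at 47.2, 43.6 and 49.1 TPM against 22.8, 15.96 and 17.97 TPM (log2 fold change -1.27 ± 0.17). SMAD7 was at 4.24, 5.22 and 6.32 TPM against 1.98, 1.85 and 1.98 TPM (log2 fold change -1.08 ± 0.21). Neither gene's groups overlapped, and both inhibitors were thus lower in parental Panc89, as SMAD3 was. Between the Paraclone cells, SKIL was instead higher in Panc89 (mean 37.5 TPM) than in Panc1 (mean 21.6 TPM).

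At the receptor level, TGFBR2 was at 36.6, 30.8 and 36.1 TPM in parental Panc1 and at 69.4, 70.1 and 61.9 TPM in parental Panc89. All 3 Panc89 libraries were higher, with a log2 fold change of 0.94 ± 0.19 (adjusted p = 0.00035). Parental Panc89 was also the group with the highest PECAM1 level, whose part in this difference was not tested. TGFBR1 (mean 10.7 and 8.93 TPM) and TGFBR3 (mean 1.69 and 1.31 TPM) did not pass the test. TGFB1 was lower in parental Panc89 (log2 fold change -0.54, adjusted p = 0.00992) and TGFB3 as well (log2 fold change -0.83, adjusted p = 0.0195), while TGFB2 differed by 0.04 (95% interval -0.55 to 0.62). The TGFB1 call was lost when libraries were scaled by upper quartile (adjusted p = 0.0672) or median of ratios (0.154), and both scalings called SMAD2 higher in Panc89 (log2 fold change 0.37 and 0.45). The TGFB3 call was lost without parental Panc1 replicate 2 (adjusted p = 0.116) or parental Panc89 replicate 3 (0.0775).

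Within Panc1, the comparison of Holo- with Paraclone cells asked how the stem-like clone differs from its counterpart in a mesenchymal-like background. Panc1 Holoclone cells had more TGFBR1, SMAD2 and SKIL and less TGFBR2, TGFBR3 and TGFB1 than Panc1 Paraclone cells. Thus 6 of the 10 genes passed the test, 3 in each direction, against 37.3% of all genes tested, of which 27.4% were higher and 9.97% lower. The median of all genes was 0.19 in this comparison and moved to 0.01 and 0.00 with upper quartile and median-of-ratios scaling, and the share of higher genes among all those called moved from 73.3% to 51.3% and 47.7%. Changes relative to the median are therefore given as well.

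SKIL was at 60.5, 55.2 and 59.0 TPM in the Holoclone and at 17.6, 18.8 and 28.2 TPM in the Paraclone cells. Every Holoclone library was above every Paraclone library, with a log2 fold change of 1.42 ± 0.17 (adjusted p = 7.88e-06), or 1.23 relative to the median of all genes. SMAD2 was at 90.8, 107 and 103 TPM in Holoclone and at 60.0, 49.5 and 60.4 TPM in Paraclone cells. The groups were again apart, with a log2 fold change of 0.82 ± 0.12 (adjusted p = 6.22e-05), or 0.63 relative to the median.

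The receptors moved in opposite directions in Panc1. TGFBR1 was at 14.8, 16.1 and 13.8 TPM in Holoclone and at 6.45, 5.596 and 5.79 TPM in Paraclone cells (log2 fold change 1.19 ± 0.14, adjusted p = 6.84e-06). TGFBR2 was at 23.2, 24.1 and 24.2 TPM in Holoclone and at 71.7, 53.9 and 59.4 TPM in Paraclone cells (log2 fold change -1.32 ± 0.19, adjusted p = 5.2e-05). TGFBR3 was at 1.03, 0.551 and 0.397 TPM against 3.14, 2.59 and 3.42 TPM (log2 fold change -1.30 ± 0.20, adjusted p = 0.000136). None of these 3 genes had overlapping groups, so that the Holoclone cells were high in the signalling receptor and low in the ligand-binding receptor and the coreceptor.

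Of the ligands, TGFB1 was at 35.7, 28.3 and 29.6 TPM in Panc1 Holoclone and at 50.5, 49.4 and 50.3 TPM in the corresponding Paraclone cells. It was lower in all 3 Holoclone libraries, with a log2 fold change of -0.67 ± 0.17 (adjusted p = 0.00498). TGFB2 was at 34.2, 69.5 and 35.9 TPM against 38.6, 36.3 and 43.9 TPM, and replicate 2 of the Holoclone cells alone lay above the other group. Its difference of 0.15 (95% interval -0.43 to 0.74) became -0.17 without that library and turned negative under both scalings (-0.09 and -0.11). SMAD3 was at 187, 182 and 155 TPM in Holoclone and at 233, 220 and 250 TPM in Paraclone cells and missed the threshold (log2 fold change -0.42, adjusted p = 0.0636). Scaling the libraries called SMAD3 lower in the Holoclone cells (log2 fold change -0.67 and -0.70), and SMAD7 too (-0.63 and -0.66, against -0.41 as deposited).

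In Panc89, Holoclone cells had less SKIL, SMAD3 and SMAD2 than Paraclone cells, and more TGFB1, although the latter call was weak. None of the receptors passed the test. Thus 4 of the 10 genes were called, 1 higher and 3 lower, against 35.7% of all genes tested, of which 22.4% were higher and 13.3% lower. Among all genes called, the share of higher ones was 62.8%, and 52.5% and 49.4% after scaling.

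SKIL was at 8.04, 8.32 and 11.03 TPM in the Holoclone and at 38.4, 36.2 and 37.9 TPM in the Paraclone cells. The groups were widely separated, with a log2 fold change of -1.94 ± 0.17 (adjusted p = 3.01e-07). SMAD3 was at 39.2, 24.5 and 20.4 TPM in Holoclone and at 67.4, 57.7 and 55.4 TPM in Paraclone cells, without overlap (log2 fold change -1.12 ± 0.17, adjusted p = 0.000107). SMAD2 was at 27.8, 32.3 and 30.2 TPM against 47.2, 55.9 and 52.3 TPM, also without overlap (log2 fold change -0.76 ± 0.12, adjusted p = 0.000124). These calls held in all 14 alternative settings tried, as did those of SKIL, SMAD2, TGFBR1, TGFBR2 and TGFB1 in Panc1, and that of TGFBR3 in the 13 settings that retained this gene.

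TGFB1 was at 51.8, 45.6 and 40.4 TPM in Panc89 Holoclone and at 40.7, 23.2 and 31.3 TPM in the corresponding Paraclone cells, and the groups overlapped. Its log2 fold change of 0.55 ± 0.17 (adjusted p = 0.0181) was no longer called with upper quartile scaling (adjusted p = 0.0613), median-of-ratios scaling (0.0874), the 2 groups fitted alone (0.141), or without Holoclone replicate 1 (0.0656) or Paraclone replicate 2 (0.0783). TGFB2 was at 15.6, 27.9 and 24.2 TPM against 9.98, 18.3 and 11.7 TPM and just missed the threshold (log2 fold change 0.72, adjusted p = 0.0518). It was called with a pseudocount of 0.1 (adjusted p = 0.0483), with a filter at 5 TPM (0.0482) and without Holoclone replicate 1 (0.0167) or Paraclone replicate 2 (0.0141). TGFBR1 differed by -0.15 (95% interval -0.44 to 0.14), TGFBR2 by -0.24 (-0.64 to 0.16) and TGFBR3 by 0.34 (-0.10 to 0.77). SMAD7 was at 1.04 to 1.87 TPM in Holoclone and at 1.27 to 2.92 TPM in Paraclone cells (log2 fold change -0.29, 95% interval -0.72 to 0.15).

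**Figure D2:**
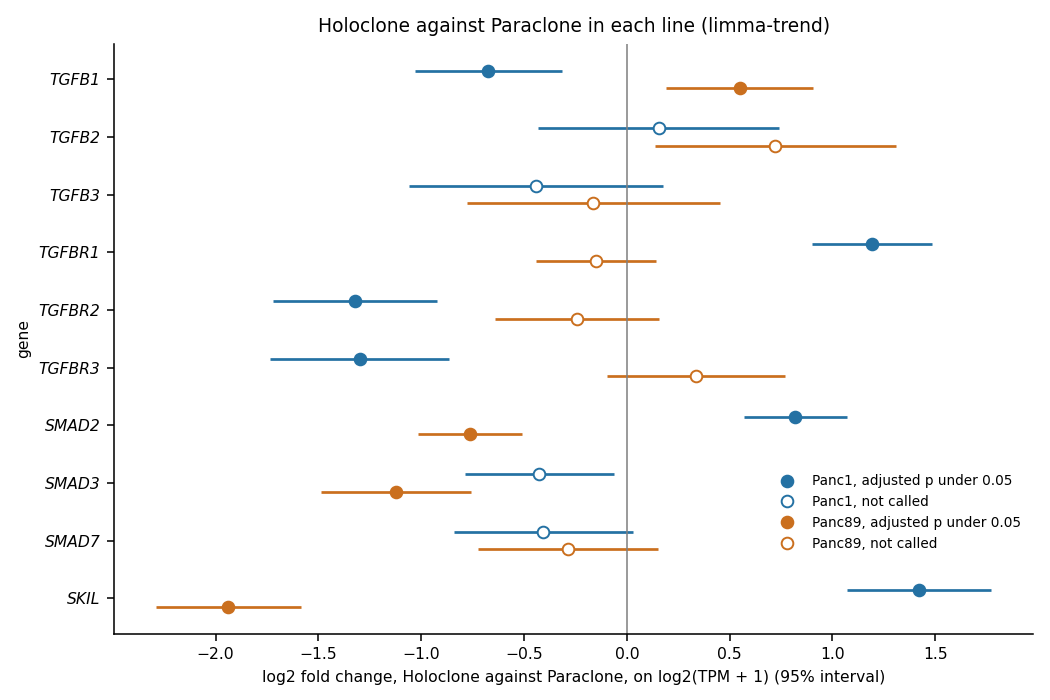
Log2 fold change of Holoclone against Paraclone cells (x axis) for each gene (y axis), in Panc1 (blue) and Panc89 (orange), from limma-trend with 3 libraries per group. Horizontal lines are 95% intervals, and filled points passed an adjusted p of 0.05. SKIL and SMAD2 lie on opposite sides of 0 in the 2 lines (1.42 and -1.94, 0.82 and -0.76), with intervals that do not reach 0.

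The difference of the 2 changes, Panc89 minus Panc1, was tested directly. It passed the threshold for 7 of the 10 genes, against 35.1% of all genes tested. The difference was largest for SKIL, at -3.36 ± 0.23 (adjusted p = 4.02e-08), followed by TGFBR3 at 1.64 ± 0.29 (0.000414) and SMAD2 at -1.58 ± 0.17 (3.25e-06). TGFBR1 differed by -1.34 ± 0.19 (adjusted p = 7.02e-05), TGFB1 by 1.22 ± 0.24 (0.00089) and TGFBR2 by 1.08 ± 0.26 (0.00489). SKIL, SMAD2 and TGFB1 were called in opposite directions in the 2 lines, within the limits given above for TGFB1 in Panc89. For the receptors, the called change in Panc1 differed from a smaller, uncalled one in Panc89. SMAD3 was lower in Holoclone than in Paraclone cells on either background (called in Panc89), and its difference of -0.70 (adjusted p = 0.0348) was lost without a filter (0.0578), with upper quartile scaling (0.0593), with the 4 groups fitted alone (0.0795) and when any of 7 of the 12 libraries was left out (0.0562 to 0.0882). For TGFB2, TGFB3 and SMAD7 the intervals of the difference included 0.

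When the same clone type was compared between the lines, all 10 genes passed the test between the Holoclone cells (65.8% of all genes) and 9 between the Paraclone cells (60.7%). In both comparisons 7 of the 10 were lower in Panc89, against 36.4% and 30.4% of all genes. SMAD3 (log2 fold change -2.65 and -1.95), SMAD7 (-2.08 and -2.20), TGFB3 (-1.53 and -1.81) and TGFB2 (-0.97 and -1.54) were among these 7. SKIL changed sides, being lower in Panc89 Holoclone than in Panc1 Holoclone cells (log2 fold change -2.56, adjusted p = 1.66e-09) and higher in Panc89 Paraclone than in Panc1 Paraclone cells (0.80, adjusted p = 0.000588). SMAD2 was lower in Panc89 Holoclone cells (-1.71, adjusted p = 3.86e-09) and did not pass the test between the Paraclone cells (-0.12, 95% interval -0.37 to 0.13). The calls of TGFBR2 and TGFBR3 between the Holoclone cells and of TGFBR1 and TGFBR2 between the Paraclone cells (all with an adjusted p of 0.0182 or more) were each lost in several settings.

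The clones were also compared with their parental line, whose 3 libraries serve both comparisons of a line. In Panc1, 3 of the 10 genes were called in Holoclone cells (10.9% of all genes) and 5 in Paraclone cells (28.6%). SMAD2 rose in the Holoclone cells (log2 fold change 0.93, adjusted p = 8.79e-05) and was at 0.12 (95% interval -0.14 to 0.37) in the Paraclone cells. SKIL was at 0.32 (-0.04 to 0.67) in the Holoclone cells and fell by 1.11 on the log2 scale in the Paraclone cells (adjusted p = 0.000151). TGFBR2 rose in the Paraclone cells (0.81, adjusted p = 0.00429) while TGFBR1 fell (-0.76, adjusted p = 0.000769), and the values in Holoclone cells were -0.51 (adjusted p = 0.103) and 0.44 (0.0531). SMAD7 was higher in both clones than in parental Panc1 (0.77 and 1.17, adjusted p = 0.0245 and 0.000591). TGFBR3 was lower in Panc1 Holoclone (-0.71, adjusted p = 0.0342) and higher in Panc1 Paraclone cells (0.59, adjusted p = 0.042). These 2 calls and that of SMAD7 in Holoclone cells were weak. SMAD7 in Holoclone cells lost its call in 8 of 14 alternatives, among them the pseudocount of 0.1, both scalings and the groups fitted alone. TGFBR3 lost it in 8 of 13 alternatives in Holoclone cells, and in Paraclone cells in 9 of 13, among them every one that left out a library (adjusted p = 0.0524 to 0.128). The count of called genes in Holoclone cells was 2 or 1 when any library was left out, with 1 without parental replicate 1, parental replicate 2 or Holoclone replicate 3. Among all genes called in Panc1 Paraclone cells, 25.6% were higher, and 47.4% and 53.0% after scaling.

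In Panc89, 4 genes were called in Holoclone cells (24.7% of all genes) and 4 in Paraclone cells (19.4%). SKIL moved away from the parental level in both, down in Holoclone cells (log2 fold change -0.97, adjusted p = 0.00044) and up in Paraclone cells (0.96, adjusted p = 0.000639). SMAD2 fell in the Holoclone cells (-0.98, adjusted p = 1.92e-05), and SMAD3 rose in the Paraclone cells (1.04, adjusted p = 0.000452). TGFBR2 was lower than in parental Panc89 in both clones (-0.92 and -0.68, adjusted p = 0.00182 and 0.0172), the latter call being lost with the groups fitted alone and when any of 4 of the 6 libraries was left out. TGFB1 rose in the Holoclone cells (0.87, adjusted p = 0.00122), and TGFB2 fell in the Paraclone cells (-1.48, adjusted p = 0.00122). With either scaling 7 genes were called in Panc89 Holoclone cells, 6 of them lower, as TGFB2, TGFB3 and TGFBR1 passed as well. Of all 16093 genes tested, 3773 were called with upper quartile and 3851 with median-of-ratios scaling, against 3981 as deposited. Among all genes called in this comparison 65.2% were higher, and 51.3% and 51.0% after scaling.

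The order of the SKIL levels over the 6 groups was Panc1 Holoclone (58.2 TPM), parental Panc1 (46.6), Panc89 Paraclone (37.5), Panc1 Paraclone (21.6), parental Panc89 (18.9) and Panc89 Holoclone cells (9.13). Only Panc1 Paraclone and parental Panc89 had overlapping libraries among neighbours in this order. For SMAD3 the order was Panc1 Paraclone (235 TPM), parental Panc1 (191), Panc1 Holoclone (175), Panc89 Paraclone (60.2), parental Panc89 (28.7) and Panc89 Holoclone cells (28.02), with overlap between the second and the third and between the last pair. For TGFBR1 only Panc1 Holoclone cells stood apart from the next group. For TGFB1, neighbouring groups overlapped except that all parental Panc89 libraries lay below those of Panc1 Holoclone cells.

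The 3 ligand genes together reached 77.0 ± 3.1 TPM (SD, n = 3) in parental Panc1, 80.6 ± 17.6 in its Holoclone and 94.3 ± 4.1 in its Paraclone cells. In Panc89 they reached 63.9 ± 4.3 TPM in parental, 68.8 ± 4.6 in Holoclone and 45.6 ± 4.7 in Paraclone cells. TGFB1 made up 38.6% ± 4.0 of this sum in parental Panc89 but 66.8% ± 8.3 in its Holoclone and 68.9% ± 12.9 in its Paraclone cells, and neither clone overlapped with the parental libraries. In Panc1 its share was 47.3% ± 6.7 in parental, 40.1% ± 10.8 in Holoclone and 53.2% ± 1.8 in Paraclone cells. TGFB3 contributed at most 7.45% in any library. Exact permutation tests of 3 against 3 libraries cannot go below p = 0.1 (two-sided), which both differences between a Panc89 clone and parental Panc89 reached (adjusted p = 0.142 over 27 tests of ligand shares and of the ratios below), so that no such test could pass the threshold.

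**Figure D3:**
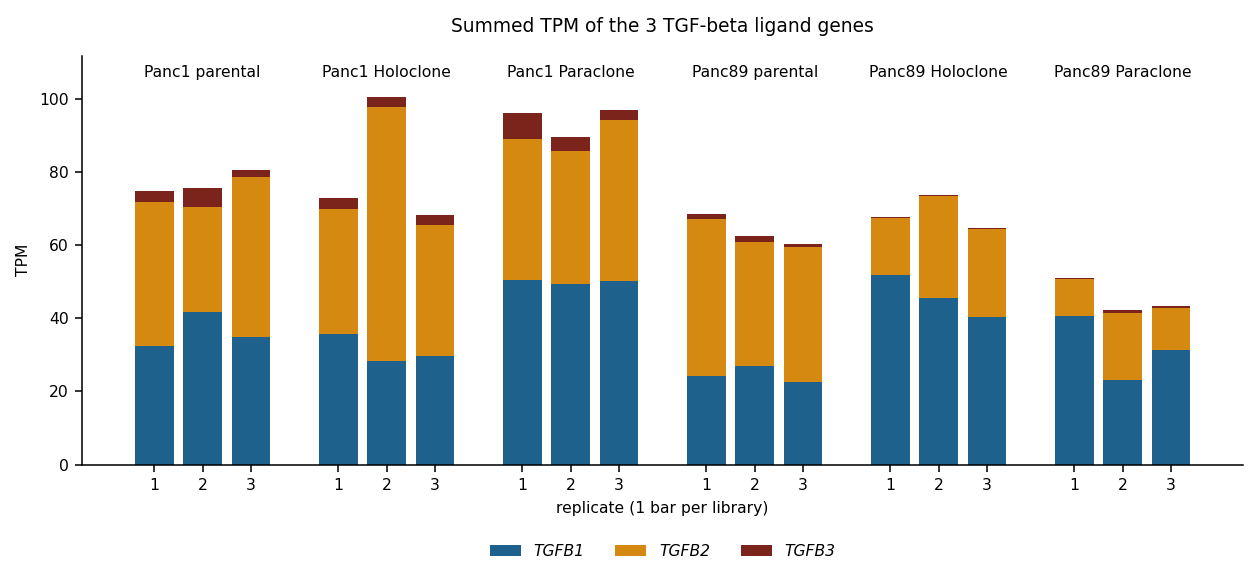
TPM of the 3 TGF-beta ligand genes (y axis), stacked in 1 bar per library, with 3 replicates for each of the 6 groups (x axis). TGFB2 (orange) is the larger part in parental Panc89, with 59.3% of the sum on average, and TGFB1 (blue) is the larger part in the Panc89 Holo- and Paraclone cells.

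Ratios within a library do not depend on its scaling. The log2 ratio of TGFBR2 to TGFBR1 was 1.68 ± 0.25 (SD, n = 3) in parental Panc1, 0.69 ± 0.12 in its Holoclone and 3.37 ± 0.10 in its Paraclone cells, 3 groups that did not overlap. In Panc89 it was 2.92 ± 0.27 in parental, 2.34 ± 0.31 in Holoclone and 2.42 ± 0.52 in Paraclone cells, and the clones overlapped (difference -0.08, exact permutation p = 0.9, two-sided). The log2 ratio of SMAD3 to SMAD2 was 1.88 ± 0.29 in parental Panc1, 0.80 ± 0.23 in its Holoclone and 2.05 ± 0.10 in its Paraclone cells. In Panc89 it was -1.07 ± 0.01 in parental, -0.16 ± 0.57 in Holoclone and 0.21 ± 0.26 in Paraclone cells, so that parental Panc89 was the only group with more SMAD2 than SMAD3 in every library. The Holo- and Paraclone cells did not overlap in Panc1 (difference -1.26, exact permutation p = 0.1, the smallest possible) but did in Panc89 (-0.37, p = 0.3).

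**Figure D4:**
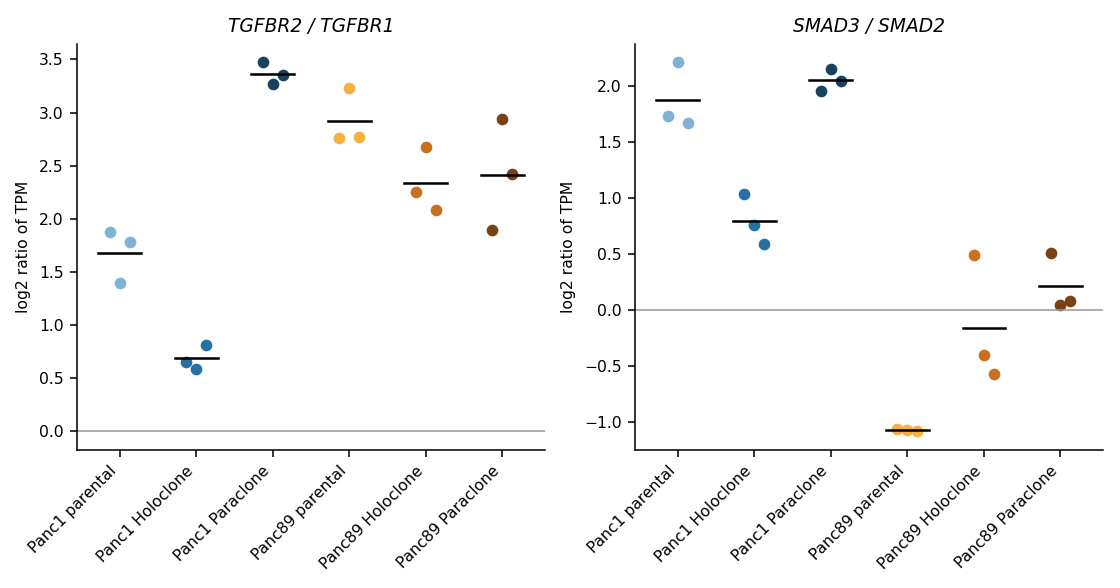
Log2 ratio of TPM (y axes) of TGFBR2 to TGFBR1 (left) and of SMAD3 to SMAD2 (right) in the 6 groups (x axis), with points for libraries and bars for the means of 3. In Panc1 the receptor ratio runs from 0.69 in Holoclone to 3.37 in Paraclone cells, whereas the Panc89 clones overlap, and every parental Panc89 library has a SMAD3 to SMAD2 ratio below 0.

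Beyond these 10 genes, 4 lists of pathway genes were examined. Their counts are to be read against all genes tested, of which 66.0% were called between the parental lines (27.5% higher and 38.5% lower in Panc89, median log2 fold change -0.18), 37.3% between the Panc1 clones (27.4% higher and 9.97% lower in Holoclone cells, median 0.19) and 35.7% between the Panc89 clones (22.4% higher and 13.3% lower, median 0.09). Of 11 genes for latent TGF-beta storage and activation, 10 were tested. Between the parental lines 4 were higher and 4 lower in Panc89 (median log2 fold change -0.03), and 7 were called whichever library was left out. ITGB6, an integrin subunit that activates latent TGF-beta, was at a mean of 21.6 TPM in parental Panc89 and 0.0534 TPM in parental Panc1 (log2 fold change 4.42, adjusted p = 2.88e-10). LTBP2, a latent TGF-beta binding protein, and ITGAV, the integrin subunit that pairs with ITGB6, were lower in parental Panc89 (-3.39 and -2.03). Holoclone against Paraclone cells gave 3 higher and 3 lower in Panc1 (median -0.003) and 1 higher and 4 lower in Panc89 (median -0.57). LTBP2 rose in Panc1 Holoclone cells (log2 fold change 1.76, adjusted p = 5.01e-05) and fell in Panc89 Holoclone cells (-3.12, adjusted p = 1.33e-07), a difference between the lines of -4.88 (adjusted p = 5.6e-08). THBS1, an activator of latent TGF-beta, was lower in Panc1 Holoclone cells (-2.54), and NRROS, which anchors latent TGF-beta, was higher (1.76). ITGB8 and ITGB6 were lower in Panc89 Holoclone cells (-1.84 and -1.81). The changes of NRROS and THBS1 differed between the lines by -1.76 and 1.91 (adjusted p = 7.02e-05 and 0.0288), and the latter call was lost in 7 alternatives (adjusted p = 0.0553 to 0.0751). NRROS was at most 0.0877 TPM in any library of the Panc89 clones, so that its difference rests on the change in Panc1.

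Of 7 other receptors and SMADs, 6 were tested, and 5 were lower in parental Panc89 than in parental Panc1 and none higher (median -0.88). Among those with a mean of 10 TPM or more in the higher group, ZFYVE9, SMAD5 and ENG changed most (-1.40, -0.96 and -0.80). ZFYVE9 (SARA) brings SMAD2 and SMAD3 to the receptor, SMAD5 is a transducer of BMP signals, and ENG (endoglin) is a coreceptor. SMAD9 lay under that level (mean 4.09 TPM in parental Panc1 and 0.506 TPM in parental Panc89). It differed more, with means of 2.34 and 0.58 on the log2(TPM + 1) scale. Panc1 Holoclone against Paraclone cells gave 4 higher and 2 lower (median 0.60), and Panc89 gave 3 higher and none lower (median 0.53). SMAD1, like SMAD5 a transducer of BMP signals, was higher in Holoclone than in Paraclone cells in Panc1 and in Panc89 (0.79 and 0.76, adjusted p = 0.00339 and 0.00481, the latter 0.063 with the groups fitted alone). ENG was lower in Panc1 Holoclone cells (-0.98, adjusted p = 0.00194), and ZFYVE9 was higher (0.80, adjusted p = 0.000485). The change differed between the lines for ENG (1.52), SMAD9 (-1.28) and SMAD4 (-0.60), the last with an adjusted p of 0.0123 that became 0.0501 under median-of-ratios scaling. SMAD9 was at most 0.975 TPM in any library of the Panc89 clones.

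Among the 11 negative regulators, 3 were higher and 3 lower in parental Panc89 than in parental Panc1 (median -0.07), 2 were higher and 1 lower in Panc1 Holoclone than Paraclone cells (median 0.08), and 1 was higher and 5 lower in Panc89 Holoclone than Paraclone cells (median -0.25). The 3 calls in Panc1 became 1 without Holoclone replicate 1 or Holoclone replicate 3, and the 6 in Panc89 became 3 with the groups fitted alone and 4 to 7 when a library was left out. Between the parental lines, PMEPA1 and the ubiquitin ligase SMURF1 were lower in Panc89 (-1.76 and -1.22) and LEMD3, an inner nuclear membrane protein, was higher (1.07). PMEPA1, a TGF-beta-induced gene whose product sequesters SMAD2 and SMAD3, was at 0.728 to 1.98 TPM in Panc89 Holoclone and at 50.7 to 84.9 TPM in the Paraclone cells of this line (log2 fold change -4.75, adjusted p = 2.48e-10). In Panc1 it was at 66.6 to 74.4 TPM in Holoclone and at 64.0 to 85.2 TPM in Paraclone cells, and the difference between the lines was -4.70 (adjusted p = 1.61e-08). SMURF2, a ubiquitin ligase acting on receptors and SMADs, was lower in Panc89 Holoclone cells (-1.36), and the corepressor TGIF1 was higher (0.88, adjusted p = 0.0012). In Panc1 Holoclone cells PPM1A, a SMAD phosphatase, was higher (1.22), and SMURF1 was lower (-0.37, adjusted p = 0.0234), a call lost without Holoclone replicate 1, Holoclone replicate 3 or Paraclone replicate 1 (adjusted p = 0.0531 to 0.0873). The changes of PPM1A and SMURF2 differed between the lines by -1.48 and -1.13.

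Of the list of TGF-beta target genes, 15 are described, and all 15 were tested. Between the parental lines 8 were higher and 3 lower in Panc89 (median 0.83). COL4A1, a basement membrane collagen, was higher in Panc89 (log2 fold change 3.76, adjusted p = 1.24e-10), and so was IGFBP3, which binds insulin-like growth factors, at 3.24 to 6.37 TPM in parental Panc1 and at 40.2 to 87.5 TPM in parental Panc89 (3.60, adjusted p = 1.74e-08). CDKN2B, a cell cycle inhibitor, was listed at 0 in every Panc1 library and was at 134 to 160 TPM in parental Panc89. In Holoclone against Paraclone cells, 1 target gene was higher and 5 lower in Panc1 (median -0.33), and 2 were higher and 7 lower in Panc89 (median -0.37). ADAM19, a membrane protease, was lower in Holoclone than in Paraclone cells in Panc1 and in Panc89 (-3.89 and -4.20, adjusted p = 1.35e-07 and 6.08e-08). TGFBI, a matrix protein, was lower in Panc1 Holoclone cells (-2.67), as was IGFBP3 (-1.86). In Panc89 Holoclone cells FN1 (fibronectin) was lower (-2.56) and CCN2 was higher (2.88). The change differed between the lines for TGFBI (2.93), COL1A1, a fibrillar collagen (-2.84), and FN1 (-2.69). FN1 was at most 0.697 TPM in any library of the Panc1 clones, so that its difference rests mostly on the change in Panc89. Genes of this list were thus called in both directions in each line. Over the named genes of these lists, 689 of 701 alternative values had the same direction and call, and the other 12 kept the direction but lost the call.

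**Figure D5:**
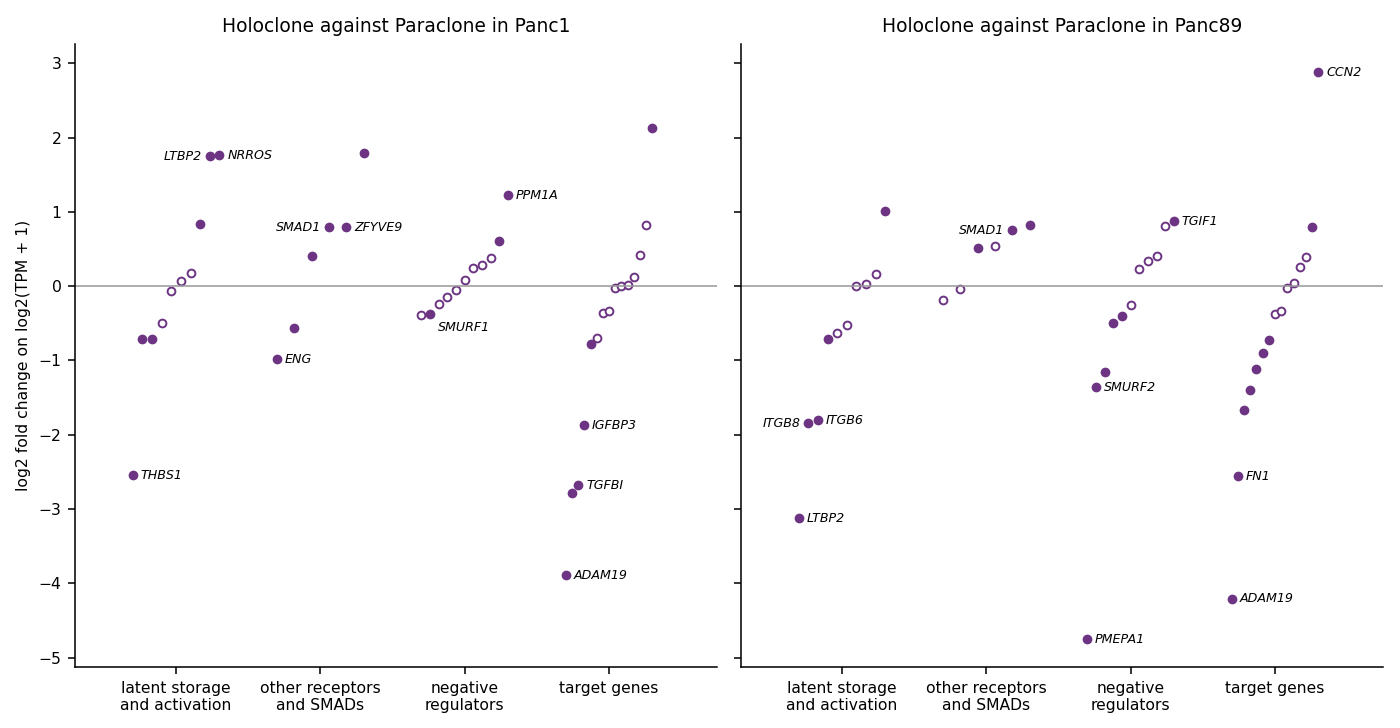
Log2 fold change of Holoclone against Paraclone cells (y axis) for the tested genes of 4 pathway lists (x axis), in Panc1 (left) and Panc89 (right), with filled points for genes past an adjusted p of 0.05 and names for the largest that met the naming rule. PMEPA1 stands at -4.75 in Panc89 among the negative regulators, and ADAM19 is the lowest target gene in both lines.

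For each of the 9 genes whose group means spanned at least 1 on the log2 scale, the genes with the most similar pattern over the 18 libraries were sought, by the root mean square difference after centring. SMAD3 was closest to RTL8C (0.177, against 1.29 for the spread of SMAD3 itself) and PCBP4 (0.237). TGFBR1 was closest to DVL3 (0.155, against 0.409) and CHRAC1 (0.157), and TGFBR3 to NECTIN2 (0.227, against 0.463) and RABAC1 (0.230). SKIL was closest to CYTH3 (0.349, against 0.884) and CHKA (0.362), and SMAD7 to SLC10A3 (0.292, against 0.983) and TXNRD1 (0.312). The nearest genes of SMAD2 were PIGO (0.265, against 0.510) and MGRN1 (0.267), those of TGFBR2 were ITPKB (0.284, against 0.536) and PSMA6 (0.304), those of TGFB2 were TMEM67 (0.384, against 0.669) and RPP40 (0.385), and those of TGFB3 were SMAP2 (0.324, against 0.809) and TM2D3 (0.337). None of the other 9 genes described here was among them.

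In the annotation (GENCODE 44, GRCh38), TGFB1 lies on chromosome 19 (41301587 to 41353922), TGFB2 on chromosome 1 (218345336 to 218444619) and TGFB3 on chromosome 14 (75958097 to 75983011). TGFBR1 lies on chromosome 9 (99104038 to 99154192), TGFBR2 on chromosome 3 (30606601 to 30694142) and TGFBR3 on chromosome 1 (91680343 to 91906335). SMAD2 (47808957 to 47931146) and SMAD7 (48919853 to 48950965) lie on chromosome 18, SMAD3 on chromosome 15 (67063763 to 67195173) and SKIL on chromosome 3 (170357342 to 170396835). Exons of TGFB1 overlap those of HNRNPUL1 on the opposite strand, which was at 93.5 to 202 TPM, and exons of TGFB2 overlap TGFB2-AS1 (at most 1.46 TPM) and, on the same strand, TGFB2-OT1 (at most 7.56 TPM). The libraries were stranded, but whether the quantification used the strand is not given in the sources used here, so that the TGFB1 values carry this uncertainty.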

How the data were processed

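RNA of 18 libraries from 6 groups was analysed (3 passages per group), each column being assigned by its label. According to the study's methods, stranded mRNA libraries were sequenced as paired 100 bp reads, quantified with kallisto 0.46.1 (version from the submitters' processing notes) against Ensembl GRCh38 and summarised per gene by the authors with tximport (scaled TPM). As deposited, each value is log2(TPM + 1) of a gene symbol in a library, and no counts were analysed here, so that a count model as used by the authors (DESeq2) was not applicable.

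Groups were compared by limma-trend (limma 3.58.1, R 4.3.3) on log2(TPM + 1), fitting 6 group means to all 18 libraries. Tested were 16093 genes that reached 1 TPM in 3 or more libraries. Two-sided p-values were adjusted over them by the Benjamini-Hochberg method, and an adjusted p under 0.05 is called. The script was checked on simulated data. Shares and ratios were computed from TPM and compared by exact permutation tests (scipy 1.17.1). A gene was scored as not overlapping where all libraries of one group lay above those of the other.

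The 10 genes, the pathway lists and the tests were chosen with earlier results of these data known. From each list, the text names in each main comparison up to 3 called genes with the largest absolute log2 fold change, 10 TPM or more as mean of the higher group and no overlap (for the difference between lines, called only), and for each of the 10 genes with a span of at least 1 the 2 genes of most similar pattern. LRRC32 and ACVRL1 did not pass the filter, and 1 gene of the target list is not reported here and was left out of its counts. Promoter windows come from RefSeq (GRCh38.p14), where all 10 genes were matched, and positions from GENCODE 44 on GRCh38. Alternatives comprised a pseudocount of 0.1, no filter or a filter at 5 TPM, upper quartile and median-of-ratios scaling, a replicate block (within each line, sum-to-zero coded), no trend, the groups fitted alone, and leaving out each library. For the pathway lists they were added after seeing the data. Replicates of a group correlated at r = 0.954 to 0.992 over genes.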

Additional observations from a re-analysis of the deposited data

Results flagged for a closer look

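The change from Paraclone to Holoclone cells differed between the 2 lines for 7 of the 10 genes, against 35.1% of all genes tested. This was the direct test of Panc89 minus Panc1, on the log2 scale. The difference was -3.36 for SKIL (adjusted p = 4.02e-08, limma-trend), with all 3 Holoclone libraries above the Paraclone libraries in Panc1 and all 3 below in Panc89. It was -1.58 for SMAD2 (adjusted p = 3.25e-06), again with non-overlapping groups of opposite direction. TGFBR1 differed by -1.34 (adjusted p = 7.02e-05), TGFBR2 by 1.08 (0.00489) and TGFBR3 by 1.64 (0.000414), where Panc1 had non-overlapping and Panc89 overlapping groups. TGFB1 differed by 1.22 (adjusted p = 0.00089), and its Panc89 groups overlapped. SMAD3 differed by -0.70 (adjusted p = 0.0348), a call that did not hold in several settings.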

How the results depend on the processing

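Over the alternatives, 1314 of 1440 values of single genes retained their direction and side of the threshold, 68 lost and 38 gained a call, and 20 turned direction, none of them past the threshold in either fit. With upper quartile and median-of-ratios scaling, 7 genes were called in Panc89 Holoclone against parental Panc89 cells instead of 4. Of all 16093 genes tested, 3773 and 3851 were called in this comparison with these scalings, against 3981 as deposited. TGFB2 in Panc1 Holoclone against Paraclone cells turned to -0.088 and -0.11 under these scalings, and TGFBR3 in Panc89 Holoclone against parental Panc89 cells to -0.048 and -0.049, and to -0.0024 with the pseudocount of 0.1. The cause of these changes was not tested. When each library was left out in turn, the count of called genes in Panc1 Holoclone against parental Panc1 cells ranged from 1 to 2 (main count 3). The following values included 0 in their range. TGFB2 ranged from -0.13 to 0.16 between the parental lines, from -0.17 to 0.33 between Panc1 Holo- and Paraclone cells, from -0.068 to 0.43 in Panc1 Holoclone and from -0.071 to 0.22 in Panc1 Paraclone against parental cells. TGFB3 ranged from -0.27 to 0.029 between the Panc89 clones, from -0.034 to 0.53 for the difference between lines and from -0.32 to 0.22 in Panc1 Holoclone against parental cells. SMAD7 ranged from -0.091 to 0.30 for the difference between lines and from -0.13 to 0.26 in Panc89 Paraclone against parental cells. In Panc89 Holoclone against parental cells TGFBR3 ranged from -0.23 to 0.15 and SMAD3 from -0.34 to 0.11. Between the Panc89 clones TGFBR2 ranged from -0.47 to 0.020, the TGFB1 share from -9.22 to 3.38 percentage points and the log2 ratio of TGFBR2 to TGFBR1 from -0.34 to 0.19.

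The replicate numbers did not pair the samples: deviations of same-numbered libraries within a line correlated at -0.318 to 0.190 over 18 pairs (mean -0.04), and 3 of 18 libraries were closest to their own number. With the replicate number as a block, 6 of the genes described here were called between the parental lines, against 10325 of all 16093 genes tested. Between the clones 7 were called in Panc1, against 5553 of all genes, and 4 in Panc89, against 5211. For the difference between the lines 7 were called, against 5095 of all genes.

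Precision is limited by 3 passages per group and by unknown depth. Values under 1 TPM, as of TGFB3 in the Panc89 clones, depend most on the pseudocount.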
